A study of Mus musculus with 6 samples.

Results

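The mitochondrial ribosomal protein genes are the nuclear genes for the proteins of the ribosome inside mitochondria. They were taken as the protein-coding genes of the deposited table whose symbol begins with Mrpl or Mrps followed by a digit, which gave 78 of 55487 genes, 49 named for the large subunit (Mrpl) and 29 for the small subunit (Mrps). The mitochondrial ribosome translates the few messenger RNAs made from mitochondrial DNA, all of which encode subunits of the respiratory chain and ATP synthase. Its ribosomal RNAs come from mitochondrial DNA, but every one of its proteins is made in the cytosol and imported. Compared with its bacterial relative it has less RNA and many added proteins, so that the genes fall into those with a bacterial counterpart and those found only in mitochondria. Blood stem cells contain mitochondria but are known to draw much of their energy from glycolysis at rest.

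RNA was sequenced in bulk from long-term hematopoietic stem cells, which renew themselves in the marrow and can rebuild the blood, of wild type mice that had not been irradiated. The 2 groups were carnosine, a natural dipeptide that contains histidine, with 3 libraries, and saline, the control, with 3 libraries. In both groups the cells had been sorted as lineage-negative, Sca-1 positive and c-Kit positive cells lacking Flk2 and CD34. The dose and duration of carnosine, the age and sex of the mice, and whether each library came from a separate animal are not stated in the sources used here. The p-values measure only the spread between these libraries, which may be technical.

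The carnosine libraries held 10442112 to 13251332 counts and the saline libraries 10304539 to 13210166. Along the first principal component, with 48.2% of the variance, carnosine and saline libraries were apart. The summed level of 12 stem cell markers was 1400 to 1530 CPM (counts scaled to library size and composition) in the carnosine libraries and 1440 to 1460 CPM in the saline libraries. Levels within this list differed widely. Kit averaged 530 CPM in carnosine and 546 CPM in saline. Slamf1 averaged 3.64 CPM in carnosine and 4.28 CPM in saline, and Hoxb5 1.62 CPM and 1.75 CPM. Messenger RNA of Cd34 and Flt3, whose proteins the gate excludes, summed to 1620 to 1650 CPM in the carnosine libraries and 1670 to 1690 CPM in the saline libraries. Each was more abundant than Kit: Cd34 averaged 861 CPM in carnosine and 857 CPM in saline, and Flt3 775 CPM and 818 CPM. The sums therefore do not show how pure the sorted cells were. Marker lists of other cells moved with the groups: 9 B and plasma cell markers summed to 1480 to 1750 CPM in the carnosine libraries against 739 to 799 in the saline libraries, and 8 red cell markers to 144 to 151 CPM in the carnosine libraries against 52.2 to 62.6 in the saline libraries. The 8 progenitor markers summed to 909 to 942 CPM in the carnosine libraries against 1270 to 1280 in the saline libraries. Their part in the results below was not tested, and in bulk RNA fewer cells of a type and less RNA per cell cannot be told apart.

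Few of the mitochondrial ribosomal protein genes passed the test between carnosine and saline, and those that did had small changes. Of the 77 that were abundant enough to test, 3 were higher in carnosine (3.9%) and 0 were lower, by edgeR's quasi-likelihood test with Benjamini-Hochberg adjustment over all 15298 genes tested and a threshold of 0.05. Over all genes tested the same threshold was passed by 9.51% higher and 8.39% lower in carnosine, so that the share of members called was below the background in both directions. The median log2 fold change, carnosine over saline, was 0.03 over the members (quartiles -0.04 and 0.13) and 0.00 over all genes tested. The members' changes were small: the median of their absolute log2 fold changes was 0.09, against 0.16 over all genes, and 7 members (9.09%) lay beyond a log2 fold change of 0.25 in either direction, against 32.9% of all genes. The members' estimates were also more precise, with a median standard error of 0.08, against 0.1 over all genes. The part of precision in this difference of size was not tested.

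How closely the data bound these changes can be read from the intervals. The 95% interval of the log2 fold change lay within 1 of 0 for 76 of the 77 members and within 0.5 of 0 for 66, and the median standard error (SE) was 0.08. A member that did not pass the test is therefore not shown to be equal in the 2 groups, but for most members a change larger than 0.5 on the log2 scale lay outside its interval. At an unadjusted p under 0.05, 12 of the 77 members were higher and 2 lower, beside 16.8% and 16.0% of all genes. The groups did not overlap for 17 members that were higher in carnosine (22.1%, against 19.7% of all genes) and for 3 that were lower (against 19.0% of all genes). Estimates above 0 were more frequent than estimates below 0, with 51 against 26 members, beside 7673 against 7625 over all genes tested. This difference was not tested.

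The members without overlap that were higher in carnosine were Mrpl9, Mrpl12, Mrpl13, Mrpl18, Mrpl19, Mrpl34, Mrpl36, Mrpl37, Mrpl42 and Mrpl43 in the large subunit and Mrps9, Mrps14, Mrps16, Mrps27, Mrps31, Mrps33 and Mrps34 in the small subunit. Their log2 fold changes ran from 0.08 for Mrpl36 to 0.27 for Mrps33. Mrpl34, counterpart of the very small bacterial L34, had 36.3, 34.5 and 35.9 CPM in the carnosine libraries and 32.8, 32.5 and 30.7 CPM in the saline libraries (log2 fold change 0.15, adjusted p = 0.119). Mrpl43, found only in mitochondria, had 34.8, 33.1 and 37.2 CPM in the carnosine libraries and averaged 30.4 ± 1.62 CPM in saline (SD, n = 3; log2 fold change 0.21, adjusted p = 0.0924). In both genes every carnosine library was above every saline library, by less than the test required. The members without overlap that were lower in carnosine were Mrpl49, Mrpl53 and Mrps36.

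**Figure D1:**
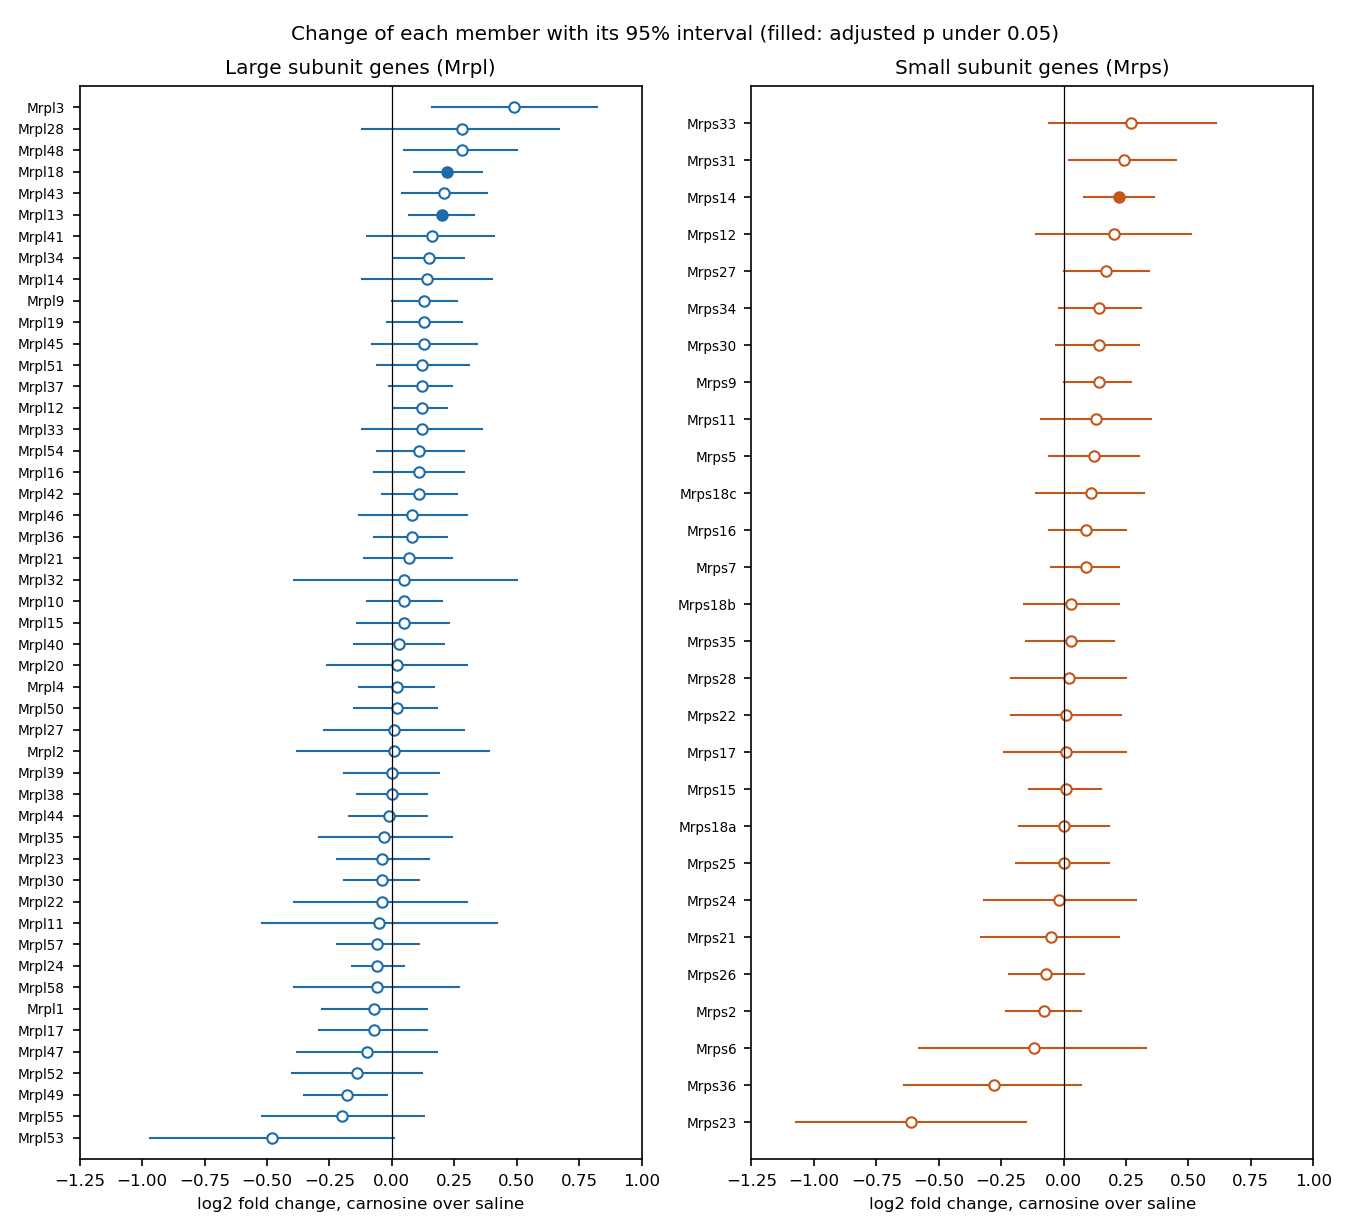
Log2 fold change of each of the 77 tested mitochondrial ribosomal protein genes, carnosine over saline, with its 95% interval from the edgeR fit; large subunit genes are on the left and small subunit genes on the right, sorted by estimate, and filled circles passed the adjusted threshold. The 3 filled circles are Mrpl18, Mrpl13 and Mrps14, and the widest departures from 0, Mrpl3 and Mrps23, are open.

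The 3 genes that rose encode proteins with bacterial counterparts, as do 28 of the 49 large and 17 of the 28 small subunit genes tested. Mrpl18 encodes the counterpart of bacterial L18, which in bacteria binds 5S ribosomal RNA. Its level was 61.1, 54.7 and 57.2 CPM in the carnosine libraries and 47.9, 49.5 and 50.6 CPM in the saline libraries, a log2 fold change of 0.22 (SE 0.06, adjusted p = 0.0365). All 3 carnosine libraries were above all 3 saline libraries. The gene lies on chromosome 17 (GRCm38, 12911349 to 12916345, minus strand) and shares a stretch with Tcp1, a subunit of the cytosolic chaperonin, on the other strand. Tcp1 was more abundant, at 351 CPM in carnosine and 291 CPM in saline, and was also higher in carnosine (log2 fold change 0.27, adjusted p = 0.00151). Since the strand setting used in counting is not given, reads of Tcp1 counted for Mrpl18 cannot be told apart from its own.

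Mrps14 encodes the counterpart of bacterial S14, a protein of the head of the small subunit. It had 42.5, 39.7 and 43.7 CPM in the carnosine libraries and 35.3, 37.0 and 35.8 CPM in the saline libraries (log2 fold change 0.22, SE 0.06, adjusted p = 0.0433). The groups did not overlap, and the gene, on chromosome 1 (160195215 to 160202170, plus strand), shares no stretch with another gene of the table. Mrpl13 encodes the counterpart of bacterial L13, an early-binding protein of the large subunit. It had 52.3, 54.3 and 52.5 CPM in the carnosine libraries and 47.9, 43.9 and 46.8 CPM in the saline libraries (log2 fold change 0.20, SE 0.05, adjusted p = 0.0438). Here too every carnosine library was above every saline library. Mrpl13, on chromosome 15 (55534094 to 55557748, minus strand), shares a stretch with Mtbp, which averaged 33.5 CPM in carnosine and 30.9 CPM in saline and did not pass the test (adjusted p = 0.30).

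All 3 adjusted p-values lay close to the threshold, and these calls depended on single libraries. Mrpl18 and Mrps14 were each called in 7 of 15 alternative settings and Mrpl13 in 4. None of the 3 was called without carnosine replicate 1, carnosine replicate 3 or any one of the saline libraries, settings that also lowered the number of calls over all genes to between 932 and 999 higher; without carnosine replicate 2 Mrpl13 was lost. Their log2 fold changes stayed between 0.17 and 0.26 in all 15 settings.

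**Figure D2:**
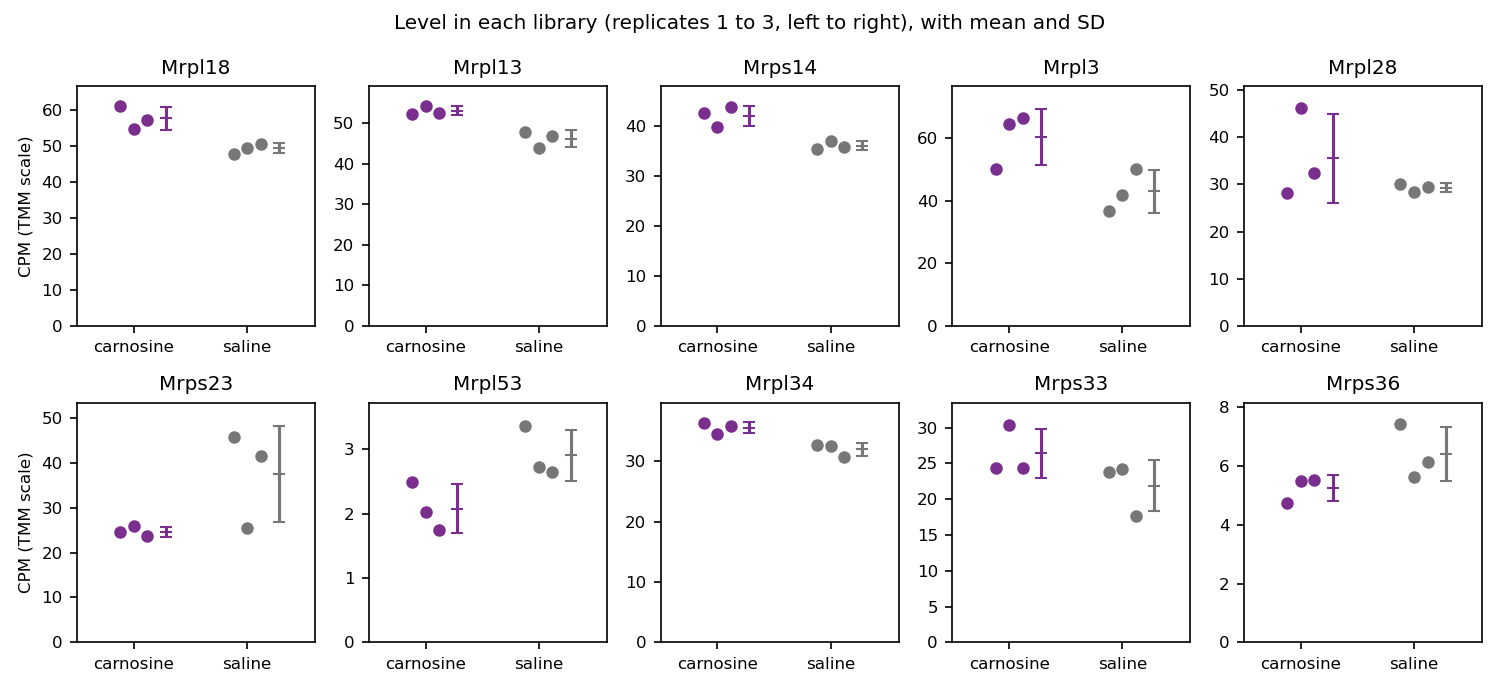
Level in CPM of 10 mitochondrial ribosomal protein genes in each of the 3 carnosine libraries (left, purple) and 3 saline libraries (right, grey), with the group mean and SD as bars; every axis starts at 0. Mrpl18, Mrpl13 and Mrps14 have separate groups close together, while Mrpl3, Mrpl28 and Mrps23 have wide spread within a group.

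The member with the largest estimated rise, Mrpl3, did not pass the test. It encodes the counterpart of bacterial L3, which reaches toward the peptidyl transferase centre, and had 50.2, 64.5 and 66.6 CPM in the carnosine libraries against 36.8, 41.7 and 50.3 CPM in the saline libraries. The highest saline library stood level with the lowest carnosine library. The log2 fold change was 0.49 (SE 0.14, interval 0.16 to 0.82, adjusted p = 0.0522). It was called in 5 of 15 alternative settings, among them the fits without carnosine replicate 1 and without saline replicate 3, whose values are the ones that meet.

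The largest estimated fall was that of Mrps23, a small subunit protein found only in mitochondria. It had 24.5, 25.8 and 23.7 CPM in the carnosine libraries and 45.6, 25.4 and 41.5 CPM in the saline libraries. The carnosine libraries were close together, whereas saline replicate 2 lay among them and the other saline libraries well above. The log2 fold change was -0.61 (SE 0.20, interval -1.07 to -0.15, adjusted p = 0.0712), and the gene was called lower by DESeq2 and in the fit without saline replicate 2.

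These genes had the highest replicate spread of the family. The within-group variance divided by the counting variance (chi-square per degree of freedom, 1 for counting noise alone) was 16.1 for Mrps23, 14.3 for Mrpl3 and 14.0 for Mrpl28, against a median of 1.23 over the members and 1.48 over all genes tested. In total 7 of the 77 members exceeded 8, as did 8.39% of all genes tested. Mrpl28, the counterpart of bacterial L28, had 28.1, 46.1 and 32.4 CPM in the carnosine libraries and averaged 29.3 ± 0.902 CPM in saline (SD, n = 3; log2 fold change 0.28, adjusted p = 0.299). Its estimate came from carnosine replicate 2, and without that library the estimate was 0.05. The other 4 members above 8, Mrpl2, Mrpl11, Mrpl32 and Mrps6, had estimates between -0.12 and 0.05.

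**Figure D3:**
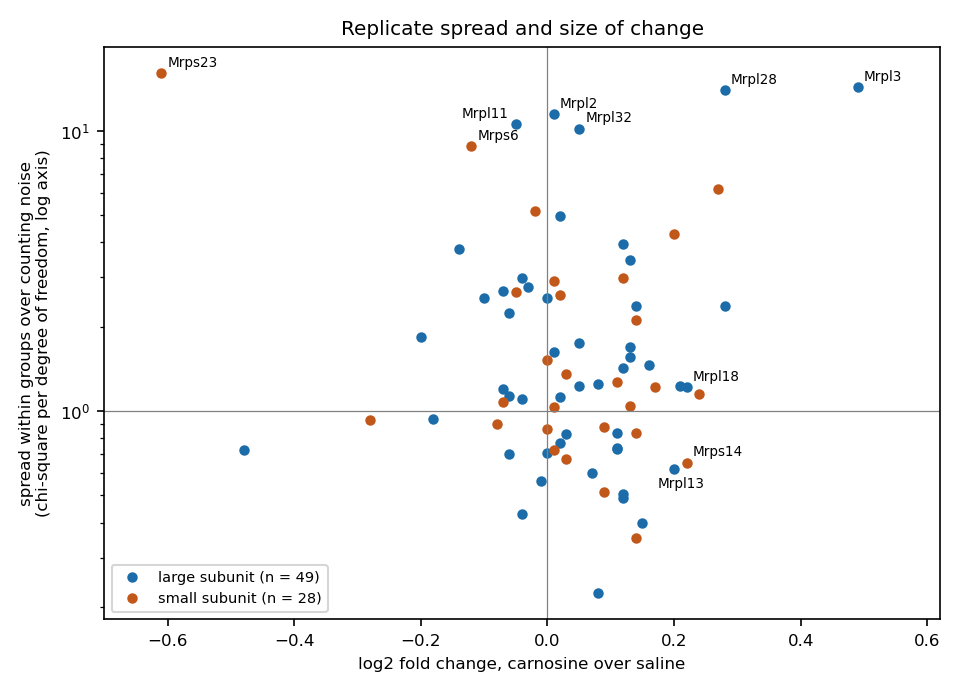
Spread within groups relative to counting noise (chi-square per degree of freedom, log axis) against the log2 fold change, carnosine over saline, for the 77 tested members; the horizontal line marks counting noise alone. Mrps23 and Mrpl3, the extremes of the fold change axis, have values of 16.1 and 14.3, while Mrpl18, Mrpl13 and Mrps14 lie near the line.

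Upstream sequence was examined for 69 of the 78 genes, which had 75 promoters in a RefSeq table for GRCm38.p6, over the 250 bases before the annotated start. Shown here are the windows of Mrps14, the called member free of gene overlap, and of Mrpl3 and Mrps23, which had the highest and lowest estimates. Also shown are those of Mrpl34, which had the highest deposited FPKM, and of Mrpl45, which held more than 1 match to the NRF1 core. Mrpl17 and Mrpl32, not shown, also held more than 1 separate match. In Mrpl9 and Mrpl39, not shown, the matches were 1 stretch read on both strands. The windows are written 5′ to 3′ on the strand of the gene, which is the plus strand in all 5, with matches to the motifs searched in capitals.
Mrps14, chr1:160194965-160195214: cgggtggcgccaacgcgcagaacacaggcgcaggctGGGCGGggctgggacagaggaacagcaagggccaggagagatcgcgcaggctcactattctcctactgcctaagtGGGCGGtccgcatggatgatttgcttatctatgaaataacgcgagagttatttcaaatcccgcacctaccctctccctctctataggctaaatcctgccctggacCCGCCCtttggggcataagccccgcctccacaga
Mrpl3, chr9:105053018-105053238: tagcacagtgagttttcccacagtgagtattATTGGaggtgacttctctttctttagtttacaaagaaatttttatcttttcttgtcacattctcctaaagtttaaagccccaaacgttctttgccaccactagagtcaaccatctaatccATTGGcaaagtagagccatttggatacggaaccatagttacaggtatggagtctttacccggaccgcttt
Mrps23, chr11:88204138-88204387: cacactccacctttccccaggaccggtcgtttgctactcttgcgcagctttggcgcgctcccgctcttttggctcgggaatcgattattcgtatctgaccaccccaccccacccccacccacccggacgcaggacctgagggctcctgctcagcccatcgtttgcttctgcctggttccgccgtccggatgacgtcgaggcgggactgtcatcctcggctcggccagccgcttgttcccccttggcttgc
Mrpl34, chr8:71464676-71464925: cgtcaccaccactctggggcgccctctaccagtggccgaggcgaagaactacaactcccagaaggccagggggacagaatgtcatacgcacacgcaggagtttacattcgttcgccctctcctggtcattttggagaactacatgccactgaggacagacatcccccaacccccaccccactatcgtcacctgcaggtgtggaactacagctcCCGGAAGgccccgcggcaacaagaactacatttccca
Mrpl45, chr11:97315466-97315715: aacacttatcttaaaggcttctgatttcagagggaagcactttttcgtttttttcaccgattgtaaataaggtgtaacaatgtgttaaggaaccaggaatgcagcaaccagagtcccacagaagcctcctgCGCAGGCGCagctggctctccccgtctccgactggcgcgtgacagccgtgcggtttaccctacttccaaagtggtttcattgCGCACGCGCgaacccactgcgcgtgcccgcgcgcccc

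The capitals in the Mrps14 window are 3 SP1 boxes (GGGCGG, or CCGCCC on the other strand), which begin 214, 139 and 34 bases before the start. In the Mrpl3 window they are 2 CCAAT boxes read on the other strand (ATTGG), 219 and 99 bases before the start; the window is cut short where an annotated exon begins, and an ETS core that begins 19 bases before the start lies in the part not shown. The Mrpl34 window holds 1 ETS core (CCGGAAG), 37 bases before the start, and the Mrpl45 window 2 NRF1 cores (GCGCNTGCG, read on the other strand), 119 and 37 bases before it. The Mrps23 window holds none of the 6 motifs, which says only that these letters are not in it. The windows differ in base composition, with 42.8% G and C over the 250 bases of Mrpl3 and 64.0% for Mrps23.

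Motifs of factors known to act on nuclear genes for mitochondria were found in more of the member promoters than of all promoters, on either strand. The NRF1 core GCGCNTGCG was in 15 of 75 member promoters, against 10.7% of the 12912 promoters of genes tested and 5.19% of all 32851 promoters. It was in 12 of 48 large subunit and 3 of 27 small subunit promoters. The ETS core CCGGAAG, the element of GABP, was in 24.0% of member promoters, 13.3% of those of genes tested and 6.91% of all. The YY1 core AANATGGC was in 9.33%, 4.41% and 3.91% of the same sets. The SP1 box GGGCGG was not more frequent in member promoters (49.3%) than in those of genes tested (56.6%), and the E-box CACGTG (9.33% against 8.27%) and the CCAAT box CCAAT (37.3% against 35.5%) differed little. A promoter counted when it held at least 1 match, so overlapping matches counted together. A match is a description of sequence and not a bound site, and some genes contribute more than 1 overlapping promoter. The median G and C content was 58.4% in member promoters and 59.6% in those of genes tested.

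Few genes of either subunit passed the test. Among the 49 large subunit genes 2 were higher and 0 lower (4.08% higher), with a median log2 fold change of 0.05, and 31 estimates were positive. Among the 28 small subunit genes tested 1 was higher and 0 lower (3.57% higher), with a median of 0.03, and 20 estimates were positive. The difference between the subunits was not tested. When 3 genes were moved by the known position of their proteins, the counts of called genes and both medians were the same: Mrps30 and Mrps18a encode proteins of the large subunit despite their names, and Mrps36 is now known as a component of the 2-oxoglutarate dehydrogenase complex. In the large subunit 2 of 28 genes with a bacterial counterpart were called (median 0.05) and 0 of 21 found only in mitochondria (median 0.02). In the small subunit 1 of 17 tested genes with a bacterial counterpart was called and 0 of 11 found only in mitochondria, with a median of 0.03 in each.

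Taken as sums, the large subunit genes made up 0.157%, 0.161% and 0.16% of the counts in the carnosine libraries and 0.152%, 0.15% and 0.154% in the saline libraries. The small subunit genes made up 0.0833%, 0.0806% and 0.0813% in the carnosine libraries and 0.0819%, 0.0781% and 0.0786% in the saline libraries. The large subunit sums did not overlap between the groups, and the small subunit sums did. Without Mrpl3 all members together still held 0.234% to 0.235% of counts in the carnosine libraries, against 0.224% to 0.231% in the saline libraries. The ratio of summed FPKM, large over small subunit, was 2.16 ± 0.04 in carnosine and 2.09 ± 0.05 in saline (SD, n = 3 each), with ranges that overlapped.

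Large subunit genes with known special roles were among those that did not pass the test. Mrpl12, the stalk protein that recruits translation factors, had 69.8, 69.7 and 67.2 CPM in the carnosine libraries and 63.8, 65.2 and 61.8 CPM in the saline libraries (log2 fold change 0.12, adjusted p = 0.124). The groups did not overlap, and the 95% interval ran from 0.01 to 0.22. Mrpl45, which lies at the exit tunnel and contacts the inner membrane, had an estimate of 0.13 (adjusted p = 0.373), and Mrpl44, a protein with a ribonuclease III fold, one of -0.01 (adjusted p = 0.916). Mrpl44 shares a stretch with Wdfy1 on the other strand, which was lower in carnosine (log2 fold change -0.47, adjusted p = 0.0303). Reads of Wdfy1 counted for Mrpl44 cannot be told apart from its own. Mrpl58, the peptidyl-tRNA hydrolase that releases stalled ribosomes, had one of -0.06 (adjusted p = 0.798). Mrpl48 averaged 28.5 ± 2.56 CPM in carnosine and 23.6 ± 2.22 CPM in saline (SD, n = 3 each; log2 fold change 0.28, adjusted p = 0.0951), with groups that overlapped.

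At the lower end, Mrpl53 had 2.49, 2.02 and 1.74 CPM in the carnosine libraries and 3.37, 2.72 and 2.65 CPM in the saline libraries (log2 fold change -0.48, adjusted p = 0.157). Its groups did not overlap, but at this level its interval ran from -0.97 to 0.01. Mrpl53 shares a stretch with the more abundant Gm42688 on the same strand. Gm42688 had 15.8 CPM in carnosine and 18.5 CPM in saline (log2 fold change -0.23, adjusted p = 0.0822). Mrpl49 was lower in all carnosine libraries, at 27.4, 29.1 and 27.4 CPM against 30.3, 30.9 and 34.0 CPM in the saline libraries, without passing the test (log2 fold change -0.18, adjusted p = 0.118). It shares a stretch with Syvn1 on the other strand, at 57.4 CPM in carnosine and 73.1 CPM in saline (log2 fold change -0.35, adjusted p = 0.0614). Reads of these neighbours counted for Mrpl53 or Mrpl49 cannot be told apart from the members' own. Mrpl55 had an estimate of -0.20 (adjusted p = 0.377).

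Of the small subunit genes, Mrps33, found only in mitochondria, had 24.4, 30.4 and 24.4 CPM in the carnosine libraries and 23.8, 24.2 and 17.7 CPM in the saline libraries (log2 fold change 0.27, adjusted p = 0.234). The groups were apart by a narrow margin. Mrps31 had an estimate of 0.24 (adjusted p = 0.12) and Mrps12, the counterpart of the decoding-centre protein S12, one of 0.20 (adjusted p = 0.333). Mrps36 averaged 5.25 ± 0.452 CPM in carnosine and 6.39 ± 0.914 CPM in saline (SD, n = 3 each; log2 fold change -0.28, adjusted p = 0.238). The 3 genes related to bacterial S18 had estimates of 0.00 for Mrps18a, 0.03 for Mrps18b and 0.11 for Mrps18c, and none passed the test. Mrps30 had an estimate of 0.14 (adjusted p = 0.217), and Mrps6, among the 3 lowest, one of -0.12 (adjusted p = 0.709). Mrps6 shares a stretch with Slc5a3 on the same strand, at 15.7 CPM in carnosine and 20.4 CPM in saline. Slc5a3 was lower in carnosine (log2 fold change -0.37, adjusted p = 0.0198), and its reads counted for Mrps6 cannot be told apart from those of Mrps6.

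Mrps10 was the only member too low to test. Its 6 libraries held 5, 5 and 4 counts in carnosine and 6, 3 and 1 in saline, 24 in all, or 0.303 to 0.481 CPM in carnosine and 0.0758 to 0.577 CPM in saline. Several of these values are near the limit that a count of 0 allows (3 counts, 0.227 to 0.291 CPM by library), so no difference was detectable at this depth. Its protein, the counterpart of bacterial S10, is a core part of the small subunit. The cause of the low count was not tested.

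The members were expressed over a wide range, which depends on the gene length used. By the deposited FPKM (fragments scaled to gene length and library size), means over the 6 libraries ran from 1.32 for Mrpl58 to 55.6 for Mrpl34 in the large subunit (median 8.88) and from 1.69 for Mrps17 to 32.5 for Mrps28 among the tested small subunit genes (median 7.64). After Mrpl34 came Mrpl12 at 35.5, Mrpl24 at 26.0, Mrpl18 at 23.9 and Mrpl9 at 23.3 FPKM. In the small subunit Mrps28 was followed by Mrps7, Mrps15 at 17.5, Mrps27 at 14.6 and Mrps23 at 13.9 FPKM. The lowest FPKM after Mrpl58 were 1.77 for Mrpl53 and 2.23 for Mrpl48, and after Mrps17 2.20 for Mrps36 and 3.48 for Mrps35.

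The length behind these values could be recovered from count, FPKM and library total. It equalled the summed length of all distinct annotated exons of a gene, overlapping ones included, within 1 base for 76 of 76 members with over 50 counts in a library and for 97.5% of 12520 such genes. This length was a median of 1.38 times the length of the merged exons for the members, so that FPKM understates genes with many overlapping isoforms. Per kilobase of the principal transcript, Mrpl24, whose bacterial counterpart lies at the exit tunnel, was highest at 73.4 CPM per kilobase. Mrpl33, with 11 annotated transcripts, was next at 69.7 CPM per kilobase, but had a FPKM of 3.25. Its principal transcript has 478 bases, against 7326 bases of merged exons. Per kilobase of merged exons Mrpl33 had 4.55 CPM, so its high value depends on dividing the counts of the whole gene by this short transcript. Mrpl34, with 1 transcript, had 55.7 CPM per kilobase and 55.6 FPKM. The rank correlation of the levels by FPKM and per principal transcript was 0.64 over the 77 tested members, which share the same counts.

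**Figure D4:**
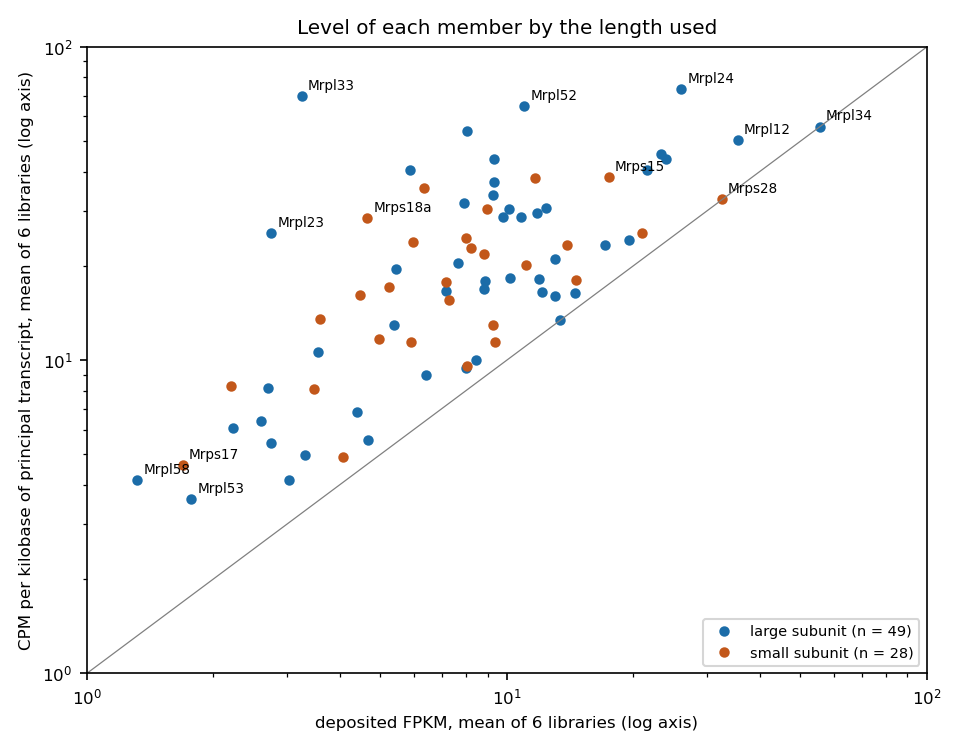
Mean level of the 77 tested members over the 6 libraries, as deposited FPKM (horizontal, log axis) and as CPM per kilobase of the principal transcript (vertical, log axis); the line marks equal values. Mrpl34 and Mrps28 lie on the line, and Mrpl33, at 3.25 FPKM and 69.7 CPM per kilobase, is farthest above it.

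Counts of some members may include or lack reads of a copy. The table holds 6 processed pseudogenes of members, and Mrpl23-ps1 had 1317 counts over the 6 libraries, more than the 1226 of Mrpl23 itself. Mrpl48-ps had 891 counts beside 1819 for Mrpl48, and Mrps36-ps1 and Mrps36-ps2 had 295 and 198 beside 403 for Mrps36. None of the 5 pseudogenes with counts was called, and how reads with several matches were treated is not given, so the levels of Mrpl23, Mrpl27, Mrpl48 and Mrps36 are uncertain. In all, 40 members share a stretch with another gene of the table, 27 of them with a gene that was tested.

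Of the genes that assemble and serve the mitochondrial ribosome, a few passed the test, to be read against 9.51% higher and 8.39% lower over all genes tested. Of 5 proteins of the mitochondrial ribosome that are named outside the Mrpl and Mrps series, such as Dap3, 0 passed the test (median log2 fold change 0.04). Of 28 tested genes for ribosome assembly and ribosomal RNA modification 0 were higher and 2 lower in carnosine (7.14% lower, near the share over all genes; median -0.03). These were Mtg2, a GTPase of large subunit assembly, at 14.0 ± 0.604 CPM in carnosine and 18.8 ± 0.829 CPM in saline (SD, n = 3 each; log2 fold change -0.43, adjusted p = 0.0103), and Dhx30, an RNA helicase (log2 fold change -0.20, adjusted p = 0.0392).

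Among 18 translation factors and messenger RNA binding proteins 1 rose and 2 fell (5.56% and 11.1%, near the 9.51% and 8.39% of all genes; median -0.01). Lrpprc, which binds and stabilises mitochondrial messenger RNAs, rose to 89.5 ± 1.75 CPM in carnosine, against 74.6 ± 3.01 CPM in saline (SD, n = 3 each; log2 fold change 0.26, adjusted p = 0.00835). Mtfmt, which formylates the initiator methionine, fell by 0.30 on the log2 scale (adjusted p = 0.0277), and Pdf, which removes the formyl group, fell by 0.51 (adjusted p = 0.0343). Among the 20 tested genes of mitochondrial aminoacyl-tRNA synthetases, which charge transfer RNAs with amino acids, 2 rose and 1 fell. These were 10.0% and 5.0%, against 9.51% and 8.39% of all genes, and the median log2 fold change was 0.14. Iars2 rose (log2 fold change 0.38, adjusted p = 0.00477) and Hars2 fell (-0.25, adjusted p = 0.0324).

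Of 16 tested genes for mitochondrial transcription and DNA maintenance 2 were lower (12.5%, against 8.39% of all genes), Mgme1, an exonuclease (log2 fold change -0.40, adjusted p = 0.0046), and Polg2, the accessory subunit of the mitochondrial DNA polymerase (-0.48, adjusted p = 0.0148). Of 13 regulators of nuclear genes for mitochondria 2 were lower (15.4%), the nuclear receptor Esrra (-0.46, adjusted p = 0.00974) and Myc (-0.22, adjusted p = 0.0445). The ribosomal RNAs of the mitochondrial ribosome itself, encoded in mitochondrial DNA, were both higher. The small subunit RNA mt-Rnr1 had 1580, 1560 and 1530 CPM in the carnosine libraries and 1260, 1300 and 1310 CPM in the saline libraries (log2 fold change 0.27, adjusted p = 0.000265). The large subunit RNA mt-Rnr2 had 3140, 3110 and 3110 CPM in the carnosine libraries and 2470, 2550 and 2630 CPM in the saline libraries (log2 fold change 0.29, adjusted p = 0.000233). All RNA encoded in mitochondrial DNA made up 3.1% to 3.19% of counts in the carnosine libraries and 2.68% to 2.83% in the saline libraries. Of the genes named from these lists, Esrra, Iars2, Lrpprc, Mgme1, Mtg2, mt-Rnr1 and mt-Rnr2 were called in all 15 alternative settings and Polg2 in 14, all but DESeq2. Pdf was called in 10, Hars2 and Mtfmt in 7, Dhx30 in 6 and Myc in 4. Dhx30 and Hars2 were lost without any one library other than saline replicate 2, Mtfmt without any one other than carnosine replicate 3, Myc without any one other than saline replicate 3, and Pdf without carnosine replicate 2 or 3 or saline replicate 1 or 2. The highest adjusted p of these 5 over the settings were 0.111 for Dhx30, 0.114 for Hars2, 0.14 for Mtfmt, 0.117 for Myc and 0.104 for Pdf. The libraries were selected for poly-A RNA, so the levels of RNA from mitochondrial DNA are of what this selection kept.

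Related gene sets give a scale for these values. Of the 93 tested genes named for cytosolic ribosomal proteins 7 were higher and 2 lower, with a median log2 fold change of 0.03. These were 7.53% and 2.15%, against 9.51% and 8.39% of all genes tested. That set was taken by symbol only (Rpl or Rps followed by a digit), so that genes named Rps6k, which encode kinases, were not removed. Of the 77 tested nuclear genes for respiratory chain and ATP synthase subunits 25 were higher and 0 lower (32.5% higher, against 9.51% of all genes), with a median of 0.18, beside 3 higher and a median of 0.03 for the mitochondrial ribosomal protein genes. The groups did not overlap for 17 of the 77 members that were higher (22.1%), near the 19.7% of all genes, and for 36 of the 77 respiratory chain genes that were higher (46.8%). The difference between the gene sets was not tested.

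**Figure D5:**
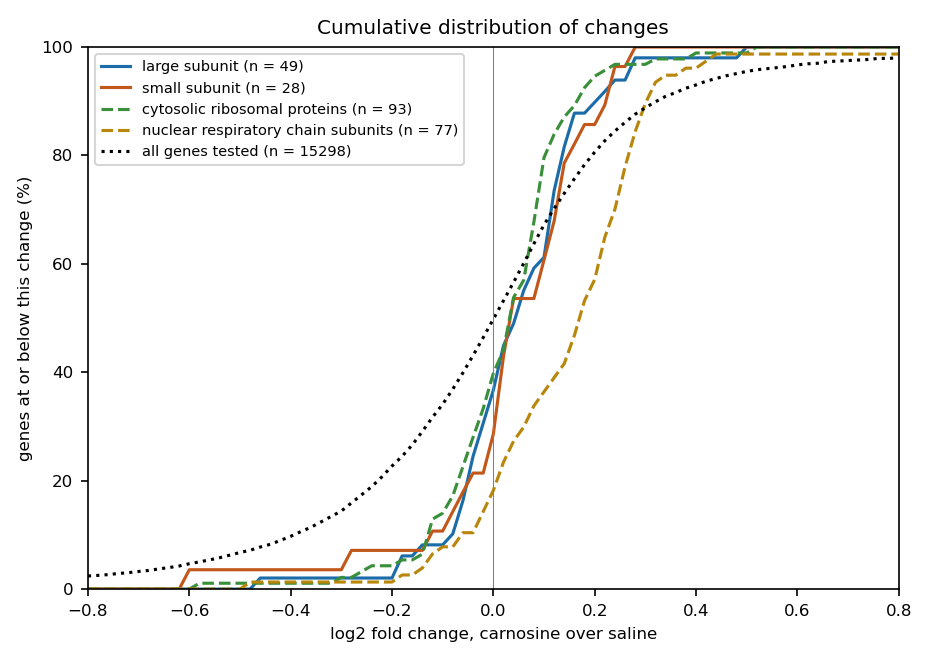
Cumulative share of genes (percent) at or below a log2 fold change, carnosine over saline, for the large and small subunit genes, cytosolic ribosomal protein genes, nuclear respiratory chain subunits and all 15298 genes tested. The curves of both subunits and of the cytosolic set (genes named Rpl or Rps) are steep around medians of 0.03 to 0.05. That of the respiratory chain lies to the right with a median of 0.18, and that of all genes is widest.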

How the data were processed

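Per the labels' protocols, poly-A RNA was made into stranded paired-end libraries; build GRCm38 and the tools CASAVA 1.8, HISAT2, StringTie and edgeR come from the submitters' processing notes. The authors deposited a raw count and an FPKM value per gene and library, per the file headers; the annotation release, strand setting and treatment of multiply mapped reads are not stated in the sources used here. All 78 members had the same coordinates in GENCODE M21, which gave transcript lengths.

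The deposited counts were scaled by TMM (factors 0.998 to 1.004), filtered with filterByExpr on the group (15298 genes kept) and tested with edgeR 4.0.16 in R 4.3.3 (quasi-likelihood F test, two-sided, Benjamini-Hochberg adjustment over all genes kept, threshold 0.05); all adjusted p-values are from this test unless another tool is named. Log2 fold changes are carnosine over saline. Limits given for low counts cover counting error only. Library pairs within a group differed by more than sampling noise (chi-square per degree of freedom 5.17 to 6.32), so none was counted as a duplicate.

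Alternatives were DESeq2 1.42.0, limma-voom (limma 3.58.1), other scalings and filters, limma-trend on log2(FPKM + 1) and log2(FPKM + 0.1), a replicate block, subunits by protein position, and leaving out each library. Levels per merged exon length and per principal transcript were added after seeing the data. The members, gene lists and markers were chosen with earlier results of these data known. Genes named were the called members, those with the 5 highest and 3 lowest FPKM and the 3 highest and 3 lowest fold changes in each subunit, the untested member, 10 members for their roles, and the called genes of each list, of which 1 is not reported here; Mrpl33, Mrpl2, Mrpl11, Mrpl32, Mrpl23, Mrpl27, Mrpl43 and members listed for groups without overlap were named after their values were seen. Nuclear respiratory chain subunits were protein-coding genes whose symbol begins with Ndufa, Ndufb, Ndufc, Ndufs or Ndufv and a digit, Uqcr, Cox4 to Cox8, or Atp5. Motifs were searched on both strands.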

Additional observations from a re-analysis of the deposited data

How the results depend on the processing

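Scaling by relative log expression or by library totals, a filter of 1 CPM in 3 libraries, and limma-voom gave the same 3 members (Mrpl13, Mrpl18, Mrps14) and 0 lower. On log2(FPKM + 1) and log2(FPKM + 0.1) 3 members were called, with Mrpl34 in place of Mrpl13, and the large subunit median was 0.03 with a pseudocount of 1. With no filter 1 member was higher, the large subunit gene Mrpl3, and 0 in the small subunit; 31351 genes were then tested. DESeq2 called 1 member higher (Mrpl3; 1 large, 0 small subunit) and 1 lower (Mrps23), and over all genes 773 higher and 775 lower, against 1455 and 1283. Replicate numbers did not pair the libraries (correlations of same-numbered deviations -0.05, -0.069 and 0.019); with the replicate block 1 member was higher (Mrpl3; 1 large, 0 small subunit), and 946 genes were higher and 810 lower. Leaving out each library gave 0 to 2 members higher (0 to 1 large, 0 to 1 small subunit) and 0 to 1 lower (Mrps23, without saline replicate 2), and 932 to 1009 genes higher and 801 to 883 lower, with fewer libraries in each fit. The medians then ran from 0.03 to 0.08 in the large and 0.04 to 0.08 in the small subunit. No called change turned its direction. Of 690 values of named genes, 587 kept direction and side of the threshold, 70 lost the call, 9 gained it, and 24 estimates near 0 without a call changed sign. Except where stated, the cause was not tested. Mrps10 was tested only with no filter on low counts.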
